A study of Homo sapiens with 6 samples.

Results

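The immediate early response genes described here were FOS, JUN, JUNB, JUND, EGR1, IER2, IER3, ATF3, DUSP1 and MYC, chosen by name from the deposited count table. All 10 were found among its 17297 gene symbols. They were measured by RNA-seq in 2 stable lines of LNCaP, an established line of human prostate cancer cells. pBabe-vector carries the empty retroviral vector (genotype WT in the labels), and pBabe-GNA13 carries the vector with GNA13 and overexpresses Gα13. Each line stands for 1 condition, with 3 biological replicates, and all were grown for 48 h in RPMI with 10% fetal bovine serum, with no serum withdrawal or stimulation in the labels. The design compares the lines to find genes whose expression depends on Gα13.

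Immediate early genes are transcribed within minutes of a growth factor, serum or stress signal, before any new protein is made, and most of their transcripts are short-lived. Serum and G protein signals reach their promoters by way of serum response factor (SRF), which binds the CArG box, and by way of factors such as CREB, which bind the cyclic AMP response element. Gα13 activates the small GTPase RhoA through RGS-domain exchange factors, and RhoA signalling is one known input to SRF. FOS and the JUN proteins pair as the AP-1 transcription factor. EGR1 and ATF3 are further transcription factors, MYC drives growth and ribosome production, and DUSP1 is a phosphatase that switches off MAP kinases.

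Within the 250 bases before the annotated start, the members searched differed in which exact matches to these elements they held. The windows of the 4 members in which a motif was found are shown. RefSeq (GRCh38.p14) windows of 8 members were used, with 2 starts for ATF3. MYC was left out of the search, and IER3 had no window. The 250 bases before the annotated start were searched on both strands. Capitals mark CArG boxes, the cyclic AMP response element TGACGTCA and its first 6 bases TGACGT (in either orientation, so ACGTCA is the same letters on the other strand, and each full TGACGTCA also counts as TGACGT). Each sequence is written 5′ to 3′ on the strand of its gene.
EGR1, chr5:138465229-138465478, + strand: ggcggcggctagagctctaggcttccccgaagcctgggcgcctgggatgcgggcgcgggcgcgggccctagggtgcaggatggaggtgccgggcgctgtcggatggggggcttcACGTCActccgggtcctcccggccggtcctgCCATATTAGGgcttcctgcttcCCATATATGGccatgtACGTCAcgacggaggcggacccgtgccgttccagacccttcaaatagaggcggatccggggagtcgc
FOS, chr14:75278578-75278827, + strand: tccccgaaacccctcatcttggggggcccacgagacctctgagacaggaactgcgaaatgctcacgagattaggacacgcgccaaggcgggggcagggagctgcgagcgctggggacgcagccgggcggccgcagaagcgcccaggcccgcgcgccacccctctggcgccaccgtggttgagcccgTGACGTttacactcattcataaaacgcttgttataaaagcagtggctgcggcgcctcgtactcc
JUND, chr19:18281623-18281872, - strand: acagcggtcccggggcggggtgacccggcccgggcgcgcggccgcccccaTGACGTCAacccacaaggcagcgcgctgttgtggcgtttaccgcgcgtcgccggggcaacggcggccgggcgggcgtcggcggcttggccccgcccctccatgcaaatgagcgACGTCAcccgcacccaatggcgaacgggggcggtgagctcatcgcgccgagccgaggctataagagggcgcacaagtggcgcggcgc
DUSP1, chr5:172771196-172771445, - strand: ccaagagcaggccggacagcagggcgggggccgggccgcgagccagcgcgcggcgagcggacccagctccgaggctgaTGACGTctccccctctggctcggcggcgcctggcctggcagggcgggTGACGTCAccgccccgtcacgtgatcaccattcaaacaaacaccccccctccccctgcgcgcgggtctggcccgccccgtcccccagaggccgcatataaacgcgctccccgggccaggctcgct
The EGR1 window held 2 CArG boxes, at −105 to −96 and −83 to −74 from the start, and no other of the 8 members searched held 1 there. A CArG box was present in 1.16% of all 35116 RefSeq windows of this length. JUND held the full TGACGTCA at −200 to −193 and DUSP1 held it at −125 to −118, against 1.65% of all windows. TGACGT, which was added to the search after the data had been seen, was found in EGR1, FOS, JUND and DUSP1, against 7.1% of all windows. The exact letters of the AP-1 site TGACTCA were found in no window of the 8 members searched and in 4.2% of all windows. All of these are exact matches of letters within 250 bases. They say nothing of elements farther away or of sites that differ from these letters.

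**Figure D1:**
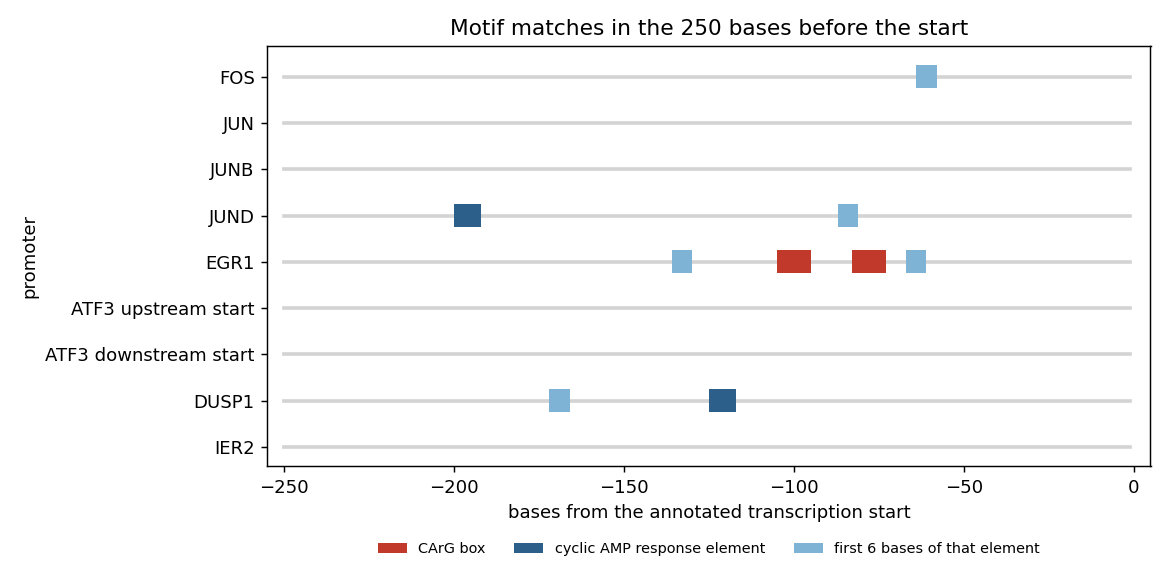
Motif matches (coloured bars, to scale) in the 250 bases before each annotated start, with the distance from the start in bases on the horizontal axis and 1 row per promoter. EGR1 holds the 2 CArG boxes, while JUND and DUSP1 hold the full cyclic AMP response element.

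Library totals ranged from 33002160 to 40628970 counts, so the floor of 3 counts equals 0.0738 to 0.0909 CPM, the usual scaling of a gene's counts to the total of its library. CPM values were normalised by TMM, and each ± gives the SD (n = 3 libraries). GNA13, which checks the labels, was at 820, 886 and 747 CPM in the std, replicate 2 and replicate 3 libraries of pBabe-GNA13 (the order kept for all values per library) and at 76.7, 69.4 and 65.4 CPM in pBabe-vector. In each line 1 library is tagged std, a tag that the sources used here do not explain. Replicates with the same number or tag deviated together, so they were treated as 3 pairs of libraries (std, replicate 2 and replicate 3), and each fit was made without and with the pair as a block. KLK3, which encodes prostate-specific antigen and marks LNCaP cells, was at 2780, 4204 and 2445 CPM in pBabe-GNA13 and at 2674, 3784 and 1836 CPM in pBabe-vector. Of 12 markers of other cell types, 7 were used, and PTPRC, CD3E, LYZ and PECAM1 were among those not analysed here. The 7 summed to 48.0 to 85.4 CPM in pBabe-GNA13 and 22.9 to 46.9 CPM in pBabe-vector. HBB, chosen after its values were seen, was at 30.3, 0 and 33.5 CPM in pBabe-GNA13 and 3.05, 0 and 3.08 CPM in pBabe-vector (std, replicate 2, replicate 3). With the block described next, 5 of those 7 markers passed as higher in pBabe-GNA13. The part of these markers in the results below was not tested.

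None of the 10 genes passed the comparison of pBabe-GNA13 with pBabe-vector without the block (edgeR's quasi-likelihood test, Benjamini-Hochberg adjusted p under 0.05 over all 17297 genes), where 0.139% of all genes did. At an unadjusted p under 0.05 there was 1 member, JUN, which was higher, beside 8.46% of all genes (4.78% higher and 3.68% lower). DESeq2 and limma also called 0 members without the block, each with 1 at an unadjusted p under 0.05. With the pairs as a block, 3 members passed, all of them higher in pBabe-GNA13, namely JUND, JUN and FOS. In that fit 19.7% of all genes passed, 9.32% as higher and 10.4% as lower. JUND was the only one of the 3 that passed with the block whichever pair was left out and with every tool tried. Limma with the block was the strictest of these, with 433 of all genes called against 3407 in edgeR. Even GNA13 had an adjusted p of 0.0228 in limma with the block. The median log2 fold change (log2FC) of the 10 genes was 0.05 and that of all genes −0.0013.

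**Figure D2:**
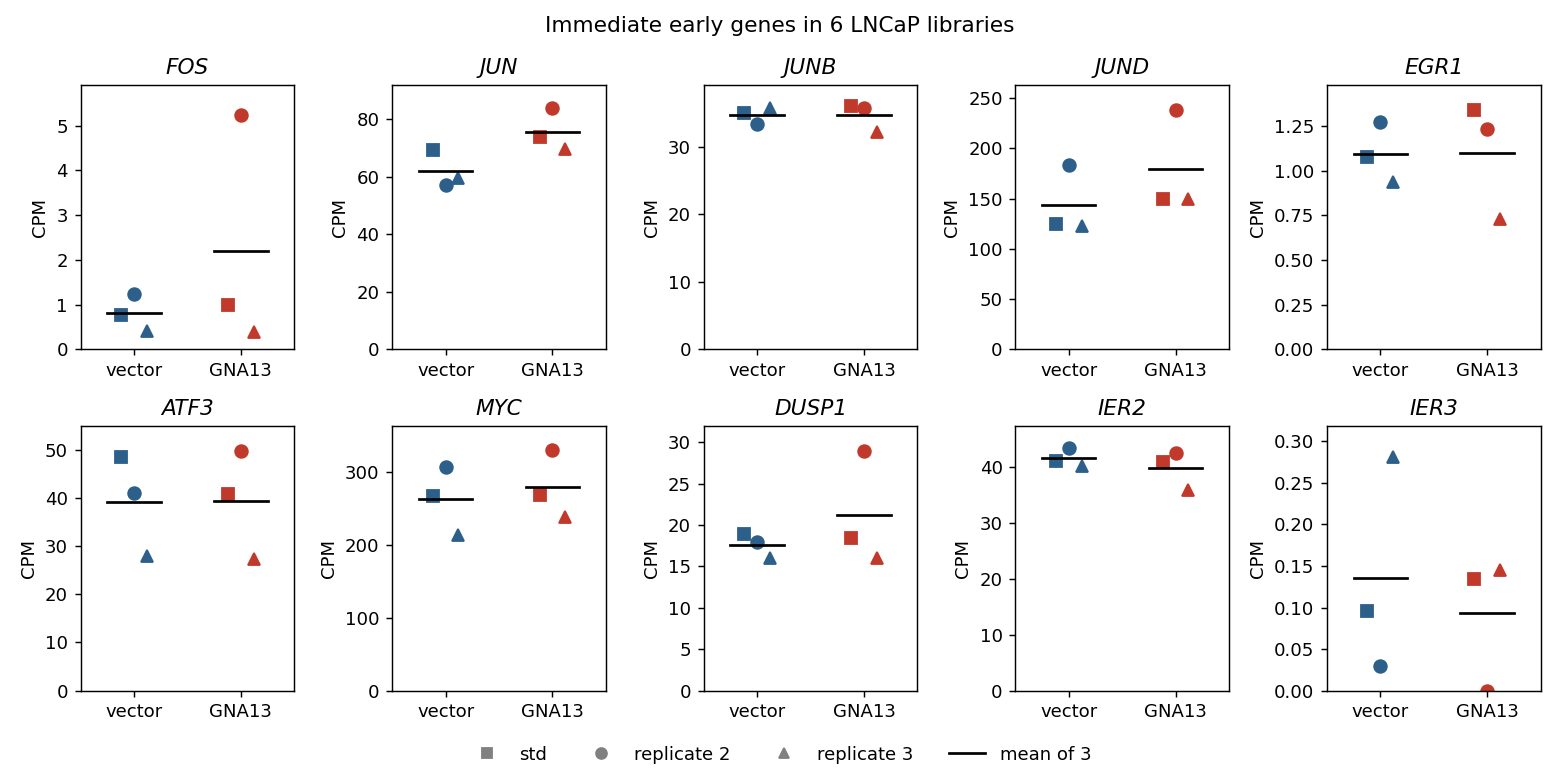
CPM (vertical axes, linear from 0) of each member in the 3 pBabe-vector (blue) and 3 pBabe-GNA13 (red) libraries, with symbols for the pairs and a line at the mean of each group of 3. Apart from JUN, whose lines do not overlap, every member has overlapping lines, and FOS has 1 pBabe-GNA13 library, replicate 2, at 5.23 CPM above 5 libraries at 1.24 CPM or less.

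Levels of different genes were compared per kilobase of the canonical transcript (Gencode 44). The highest were JUND, with mean levels of 92.7 CPM per kb in pBabe-GNA13 and 74.4 CPM per kb in pBabe-vector, and MYC, with 75.1 and 70.7 CPM per kb. JUN followed with 23.3 and 19.1, ATF3 with 20.2 and 20.2, IER2 with 18.9 and 19.7, and JUNB with 18.9 and 18.9 CPM per kb. DUSP1 stood at 10.5 and 8.74 CPM per kb. FOS had 1.05 and 0.382, EGR1 0.351 and 0.348, and IER3 0.0752 and 0.109 CPM per kb. Over single libraries JUND and MYC overlapped, as did JUN, ATF3, IER2 and JUNB among themselves, and FOS and EGR1. Thus JUND and MYC were the most abundant members in both lines, and FOS, EGR1 and IER3 the least.

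Of the AP-1 subunits, JUND is the JUN protein that is expressed most steadily in resting cells. It lies on chromosome 19 from 18279694 to 18281622 (GRCh38, Gencode 44, as for all positions that follow). JUND was at 149, 238 and 150 CPM in the std, replicate 2 and replicate 3 libraries of pBabe-GNA13, and at 124, 183 and 123 CPM in those of pBabe-vector. Within every pair the pBabe-GNA13 library was the higher one, and across the lines the groups overlapped because replicate 2 of pBabe-vector lay above 2 of the pBabe-GNA13 libraries. The log2 ratio within pairs was 0.26 (std), 0.37 (replicate 2) and 0.29 (replicate 3). Its log2FC came to 0.32 (standard error, SE, 0.23; adjusted p in edgeR 0.849) without the block and 0.31 (SE 0.05; adjusted p in edgeR 6.83e-05) with it. With the block and 1 pair left out, the log2FC was 0.27 to 0.34 (edgeR adjusted p at most 5.79e-04). With DESeq2 in place of edgeR the blocked adjusted p was 8.64e-06, and with limma it was 0.0491. The cyclic AMP response element shown in its promoter above is a feature of the sequence that these data do not probe.

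JUN encodes the founding member of its family, and its transcription is itself raised by AP-1. It lies on chromosome 1 from 58776845 to 58784048. It was at 73.8, 83.8 and 69.7 CPM in pBabe-GNA13 and at 69.3, 57.2 and 59.7 CPM in pBabe-vector. JUN was the 1 member of 10 whose lines did not overlap, beside 14.1% of all genes (7.3% higher in pBabe-GNA13), and the gap between the nearest libraries (69.7 and 69.3 CPM) was small against the spread within the lines. Its log2FC was 0.29 (standard error 0.12, edgeR unadjusted p = 0.0392 and adjusted p = 0.550; exact two-sided permutation test of 3 against 3, p = 0.10, which 3 against 3 cannot go below). With the block it passed (edgeR adjusted p = 0.00164), with log2 ratios of 0.09, 0.55 and 0.22 in the std, replicate 2 and replicate 3 pairs. Without the replicate 2 pair the log2FC was 0.15 and the blocked call was lost (edgeR adjusted p = 0.138). With limma and the block it did not pass either (adjusted p = 0.198), while DESeq2 gave 0.0127.

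JUNB, which encodes the third JUN protein, lies on chromosome 19 from 12791486 to 12793315. It was at 36.0, 35.7 and 32.2 CPM in pBabe-GNA13 and at 34.96, 33.3 and 35.6 CPM in pBabe-vector. All 6 libraries lay within 1.12-fold of each other, the narrowest range of the members. For the lines as a whole the log2FC was −0.0012 (SE 0.10; adjusted p in edgeR 1.00). The whole span of JUNB is overlapped on the opposite strand by HOOK2, and whether strand was used in counting is not given in the sources used here.

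FOS encodes the partner of the JUN proteins and is among the most transient of the immediate early transcripts. It lies on chromosome 14 from 75278826 to 75282230. It had 37, 178 and 13 reads in pBabe-GNA13 and 32, 42 and 13 reads in pBabe-vector, which equals 0.990, 5.23 and 0.378 CPM against 0.763, 1.24 and 0.405 CPM. Replicate 2 of pBabe-GNA13 (exact Poisson 95% interval 4.49 to 6.06 CPM, which covers counting error only) stood above the other 5 libraries, and the next highest was replicate 2 of pBabe-vector (0.894 to 1.68 CPM). The lowest of each line was its replicate 3. Over all libraries the log2FC was 1.44 (SE 0.89; adjusted p in edgeR 0.777), and the groups overlapped (exact two-sided permutation test, p = 0.70). With the block it was 1.15 (SE 0.31; adjusted p in edgeR 0.00901), from log2 ratios of 0.35, 2.03 and −0.09 in the std, replicate 2 and replicate 3 pairs. This call rested on 1 library: without replicate 2 of pBabe-GNA13 the log2FC was −0.22 (edgeR adjusted p = 0.990), and with the block but without the replicate 2 pair it was 0.21 (edgeR adjusted p = 0.836). DESeq2 and limma did not call FOS with the block (adjusted p = 0.187 and 0.393).

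EGR1 encodes a zinc finger transcription factor and lies on chromosome 5 from 138465479 to 138469303. Of the 8 members searched, EGR1 alone held a CArG box within 250 bases of its start, and elements farther away were not searched. It had 25 to 50 reads per library. Its level was 1.34, 1.23 and 0.727 CPM in pBabe-GNA13 and 1.07, 1.27 and 0.935 CPM in pBabe-vector. The 2 replicate 3 libraries were the lowest, and the lines were interleaved. The resulting log2FC was 0.01 (standard error 0.30, edgeR adjusted p = 1.00, with or without the block). In replicate 2 of pBabe-GNA13, where FOS had its highest level, EGR1 was at 1.23 CPM (exact Poisson 95% interval 0.889 to 1.67 CPM), beside 1.27 CPM in the same replicate of pBabe-vector.

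ATF3, a stress-induced repressor of the ATF/CREB family, lies on chromosome 1 from 212565334 to 212620777. It was at 40.8, 49.7 and 27.3 CPM in pBabe-GNA13 and at 48.4, 41.1 and 28.0 CPM in pBabe-vector. The replicate 3 libraries of both lines were the lowest, and within pairs pBabe-GNA13 was higher in 1 and lower in 2. The log2FC was 0.0027 (SE 0.26; adjusted p in edgeR 1.00), and −0.0039 with the block (edgeR adjusted p = 0.996).

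MYC lies on chromosome 8 from 127735434 to 127742951. It was at 269, 331 and 239 CPM in pBabe-GNA13 and at 268, 308 and 214 CPM in pBabe-vector. The order of the replicates was the same in both lines, with replicate 2 the highest and replicate 3 the lowest. The log2 ratio within pairs was 0.0062, 0.10 and 0.16, all above 0 but small against the range across the pairs. Its log2FC came to 0.09 (SE 0.17; adjusted p in edgeR 0.985, and 0.245 with the block). CASC11 overlaps part of the MYC span on the opposite strand.

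DUSP1 lies on chromosome 5 from 172768096 to 172771195, and an antisense long noncoding RNA covers its whole span. It was at 18.5, 28.9 and 16.0 CPM in pBabe-GNA13 and at 18.9, 17.9 and 16.0 CPM in pBabe-vector. As for FOS, 1 library, replicate 2 of pBabe-GNA13, lay above the other 5. For the lines as a whole the log2FC was 0.26 (SE 0.22; adjusted p in edgeR 0.889, and 0.118 with the block). Without that library it was −0.028. With the block, DUSP1 passed when the std pair (edgeR adjusted p = 0.00154) or the replicate 3 pair (0.00968) was left out, and not when the replicate 2 pair was (0.951).

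IER2 and IER3 are named for their early response to serum. Each is overlapped in part by long noncoding RNAs on the opposite strand. IER2, a nuclear protein gene on chromosome 19 from 13150411 to 13154911, was at 41.04, 42.6 and 36.0 CPM in pBabe-GNA13 and at 41.2, 43.5 and 40.2 CPM in pBabe-vector. It was lower in pBabe-GNA13 within all 3 pairs, with log2 ratios of −0.0059, −0.03 and −0.16, and its log2FC of −0.06 (SE 0.10; adjusted p in edgeR 0.974, and 0.518 with the block) did not pass. IER3, a regulator of apoptosis on chromosome 6 from 30743199 to 30744548, had 5, 0 and 5 reads in pBabe-GNA13 and 4, 1 and 9 reads in pBabe-vector. With so few reads a difference in IER3 was not detectable at this depth, and its fitted fold change is not read as one.

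**Figure D3:**
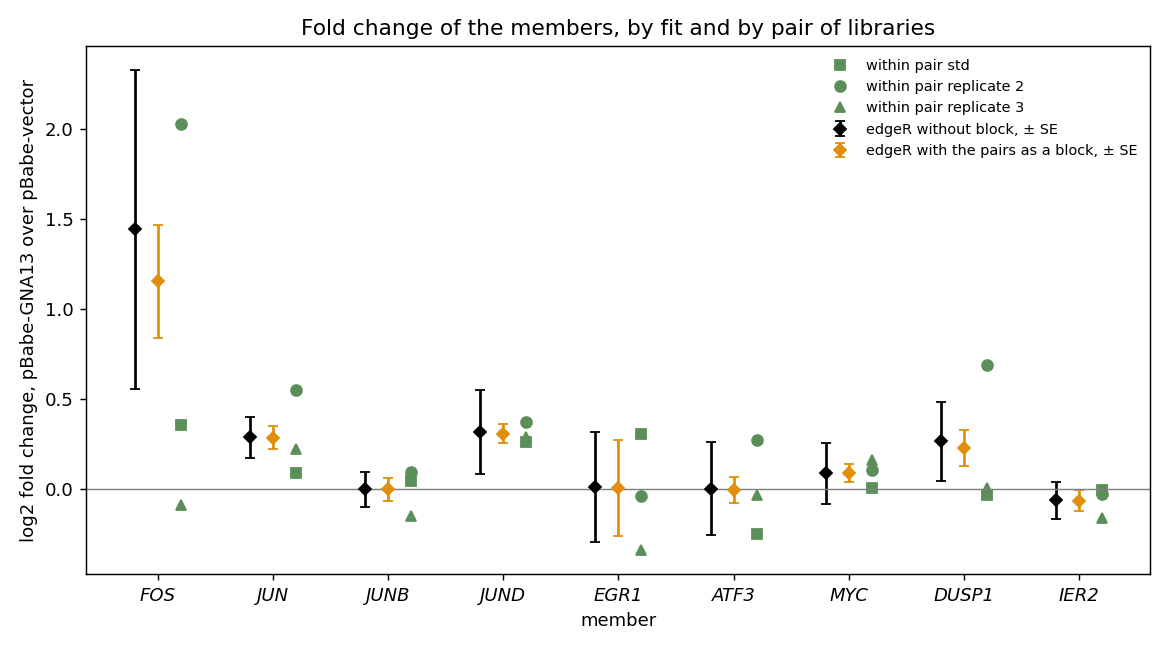
Log2 fold change of pBabe-GNA13 over pBabe-vector (vertical axis) for the 9 members other than IER3, from edgeR without (black) and with (orange) the pairs as a block, with standard errors, and the log2 ratio within each pair (green). The 3 pairs of JUND lie together between 0.26 and 0.37, whereas those of FOS run from −0.09 to 2.03.

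The members also differed between the pairs of libraries. Between the pairs of libraries 5 of the 10 genes differed (F test of the pair term in edgeR, adjusted p under 0.05), namely FOS (adjusted p = 1.56e-06), JUND (1.49e-09), ATF3 (2.09e-07), MYC (1.29e-06) and DUSP1 (0.00302). This share is near that of all genes, of which 47.4% passed the same test. JUN, JUNB, EGR1, IER2 and IER3 did not pass (adjusted p 0.0998 to 0.774). As a mean of log2 CPM over both lines, the replicate 2 pair lay above the replicate 3 pair by 2.55 for FOS, 0.71 for ATF3, 0.62 for JUND, 0.51 for DUSP1 and 0.50 for MYC. The std pair lay close to the replicate 3 pair for JUND (0.0077 above it) but close to the replicate 2 pair for ATF3 (0.02 below it), so the members did not all follow 1 pattern. The highest of the 6 libraries was replicate 2 of pBabe-GNA13 for 6 members (FOS, JUN, JUND, ATF3, DUSP1 and MYC), as it was for 18.6% of all genes. Both replicate 3 libraries lay below the 4 others for FOS, EGR1, IER2, ATF3, DUSP1 and MYC, as they did for 19.6% of all genes. In the replicate 2 libraries HBB was at 0 in both lines, and it was above 0 in the 4 others.

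**Figure D4:**
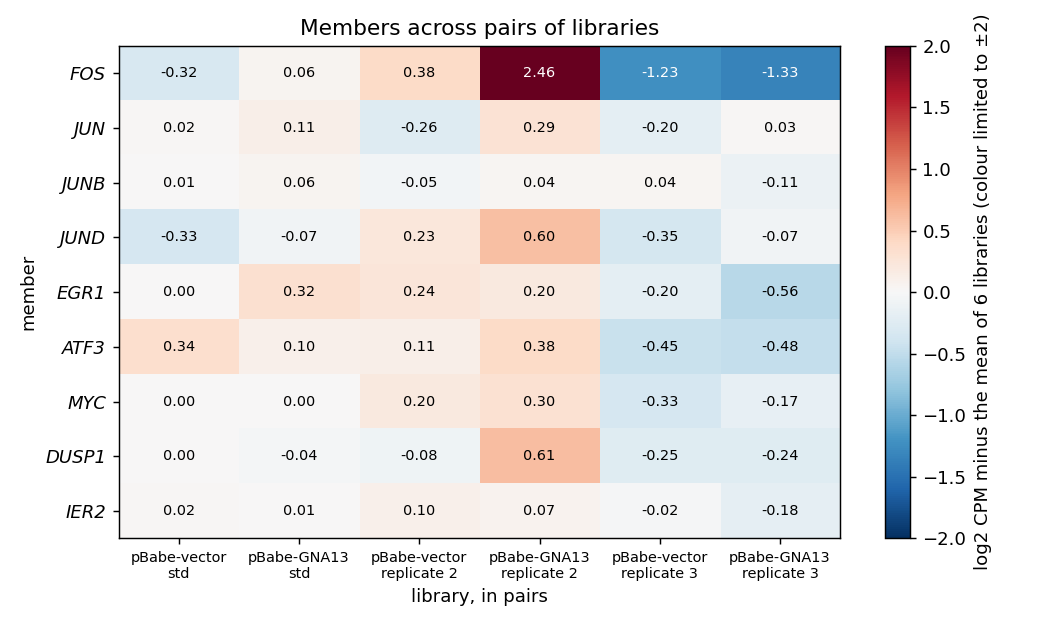
Log2 CPM of the 9 members other than IER3 minus its mean over the 6 libraries (colour and number), with the libraries ordered in pairs on the horizontal axis. Among these 9, the replicate 3 columns lie below 0 except for JUN in pBabe-GNA13 and JUNB in pBabe-vector, and the value of 2.46 for FOS in replicate 2 of pBabe-GNA13 is the highest.

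Profiles most like those of 4 members were sought among 13942 genes outside the lists, as the root mean square difference of centred log2 CPM over the 6 libraries. SCNN1G, an epithelial sodium channel subunit gene, and AKAP12, a kinase anchor gene, were nearest to FOS, both at 0.35 log2 units, and LOX, which encodes lysyl oxidase, was at 0.45. The profile of FOS itself had a root mean square of 1.203. AKAP12 was at 3.08, 17.7 and 1.66 CPM in pBabe-GNA13 and at 3.89, 8.12 and 1.71 CPM in pBabe-vector. Its peak in replicate 2 of pBabe-GNA13 follows from its choice by likeness to FOS. For EGR1 they were AK8 (0.07), OOEP (0.08) and ZNF233 (0.08). For ATF3 they were EIF4EBP3 (0.03), JMY (0.06) and WDR45 (0.07). For MYC they were TTC17 (0.03), WDR72 (0.04) and KIAA1109 (0.04). These values describe the 6 libraries only.

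The wider set held 7 lists of related genes with 109 genes besides the members. None of the 109 passed without the block (edgeR, adjusted p under 0.05), 12 had an unadjusted p under 0.05 (beside 8.46% of all genes), and DESeq2 called 2, DUSP16 (adjusted p = 0.0112) and BTG2 (adjusted p = 0.0187). With the block 32 of the 109 passed in edgeR, beside 19.7% of all genes (9.32% higher and 10.4% lower), and the counts of each list below are to be read against these shares. Of the genes named below with a blocked call in edgeR, BTG1, BTG2 and DUSP16 also passed with limma and the block, where 433 of all genes passed. ATF7, NAB1, CSRNP1, PLK2, DUSP8, AKAP13, MKL2, MXD1, MNT, MYCL, DDIT3, ASNS and CEBPB did not (adjusted p 0.0536 to 0.181). KLF4 and ID1 were not refitted under these alternatives.

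Other genes of the AP-1 family and its dimer partners had 11 of 12 entries in the table, with a median log2FC of 0.08. With the block, 1 was higher and 1 lower. ATF7, a relative of ATF2, was at 22.1 ± 1.03 CPM in pBabe-GNA13 and 17.4 ± 0.845 CPM in pBabe-vector, a log2FC of 0.34 (adjusted p in edgeR 0.411, and 0.00205 when blocked). FOSL2, a FOS relative, gave a log2FC of 0.21 (adjusted p in edgeR 0.898, and 0.0754 when blocked). MAFF, a small MAF gene, was at 2.33, 8.26 and 1.57 CPM in pBabe-GNA13 and 2.46, 3.13 and 1.96 CPM in pBabe-vector. Like FOS it was highest in replicate 2 of pBabe-GNA13, and its log2FC of 0.68 (edgeR adjusted p = 0.895) became −0.37 without that library.

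Among 17 other immediate early transcription factors and their regulators the median log2FC was 0.09, and with the block 2 were higher and 3 lower. KLF2 gave a log2FC of 0.44 (adjusted p in edgeR 0.570, and 0.0686 when blocked). NAB1, a corepressor of EGR proteins, gave a log2FC of −0.44 (edgeR adjusted p = 0.543), and it passed as lower with the block (adjusted p = 0.0172), but not without the std pair (0.117), without the replicate 2 pair (0.0556) or with DESeq2 (0.126). CSRNP1 also passed as lower with the block (log2FC −0.32, edgeR adjusted p = 0.00339). KLF4, chosen after its values were seen, was at 19.1, 33.5 and 10.8 CPM in pBabe-GNA13 and 14.95, 16.0 and 5.30 CPM in pBabe-vector. It was higher in pBabe-GNA13 in each pair and highest in the same library as FOS, with a log2FC of 0.81 (adjusted p in edgeR 0.777, and 2.95e-06 when blocked). ID1, also chosen after its values were seen, was at 5.06, 1.06 and 27.2 CPM in pBabe-GNA13 and 10.0, 1.71 and 56.8 CPM in pBabe-vector. Unlike KLF4, ID1 was lower in pBabe-GNA13 in each pair and lowest in the replicate 2 libraries. Its log2FC was −1.04 (adjusted p in edgeR 0.948, and 1.92e-08 when blocked).

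The 26 other immediate early effectors had a median log2FC of 0.16, and with the block 8 were higher and 0 lower. At an unadjusted p under 0.05 without the block 4 were higher and 0 lower. Leading these were the antiproliferative genes BTG2 and BTG1 and the polo-like kinase gene PLK2. BTG2 was at 46.2, 48.8 and 35.8 CPM in pBabe-GNA13 and at 28.2, 30.9 and 24.3 CPM in pBabe-vector. The lines did not overlap, and the log2 ratio was 0.71, 0.66 and 0.56 in the std, replicate 2 and replicate 3 pairs. Its log2FC was 0.65 (SE 0.15; adjusted p in edgeR 0.265, and 1.41e-08 with the block), larger than that of any member but FOS. BTG1 was at 221 ± 27.8 against 157 ± 24.8 CPM, a log2FC of 0.49 (adjusted p in edgeR 0.372, and 5.76e-08 when blocked). PLK2 was at 61.5 ± 6.998 against 46.9 ± 4.54 CPM, a log2FC of 0.39 (adjusted p in edgeR 0.398, and 8.47e-06 when blocked). All 3 kept the blocked edgeR call without any 1 pair.

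Of 15 MAP kinase feedback regulators, which include the relatives of DUSP1 and the Sprouty genes, the median log2FC was 0.13, with 2 higher and 1 lower with the block. DUSP16 was at 78.1, 84.4 and 73.9 CPM in pBabe-GNA13 and at 58.0, 59.9 and 59.0 CPM in pBabe-vector, with no overlap. Its log2FC was 0.42 (SE 0.09; adjusted p in edgeR 0.223, and 1.39e-06 with the block). DUSP8 gave a log2FC of −0.23 (edgeR adjusted p = 0.583) and passed as lower with the block (0.00505), but not without the replicate 3 pair (0.087). SPRY2 gave a log2FC of 0.49 (adjusted p in edgeR 0.709, and 0.0981 when blocked).

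The 20 genes of the route from Gα13 and RhoA to SRF, and of the MAP kinases, had a median log2FC of −0.02. With the block 0 were higher and 4 of the 20 lower, and the share called is near the 19.7% of all genes. AKAP13, a RhoA exchange factor gene, gave a log2FC of −0.26 (adjusted p in edgeR 0.768, and 0.00152 when blocked), and its blocked call was lost without the replicate 3 pair (0.0562). MKL2, an SRF coactivator gene, gave one of −0.15 (adjusted p in edgeR 0.750, and 0.0442 when blocked). Its blocked call was lost under every alternative run, namely each pair left out (0.114 to 0.286), DESeq2 (0.161), limma (0.0737) and the newer quasi-likelihood method (0.0598). SRF itself, named outside the rule for its role at the CArG box, was at 69.8, 63.2 and 65.7 CPM in pBabe-GNA13 and 77.8, 64.8 and 71.8 CPM in pBabe-vector, and did not pass (adjusted p in edgeR 0.910, and 0.159 when blocked).

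The 10 partners and antagonists of MYC had a median log2FC of 0.02, with 3 higher and 1 lower with the block. MXD1, which competes with MYC for MAX, was at 9.32, 11.4 and 9.94 CPM in pBabe-GNA13 and at 7.73, 6.88 and 7.10 CPM in pBabe-vector, without overlap. Its log2FC was 0.50 (SE 0.14; adjusted p in edgeR 0.369, and 0.00175 with the block). MNT, another MAX partner, gave a log2FC of −0.21 (adjusted p in edgeR 0.713, and 0.00687 when blocked) and MYCL one of 0.37 (adjusted p in edgeR 0.820, and 0.00551 when blocked). The blocked call of MNT was lost without the std pair (0.111), and the log2FC of MYCL was 0.20 without replicate 3 of pBabe-vector and 0.57 without replicate 3 of pBabe-GNA13.

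ATF3 is also a target of ATF4 in the integrated stress response, and 10 genes of that response had a median log2FC of −0.05. With the block 2 were higher and 4 lower, so they did not move in 1 direction. DDIT3, which encodes the factor CHOP, was at 29.2, 44.6 and 12.04 CPM in pBabe-GNA13 and at 24.6, 17.6 and 8.13 CPM in pBabe-vector. Its log2FC was 0.77 (adjusted p in edgeR 0.827, and 5.69e-05 when blocked). It was 0.30 without replicate 2 of pBabe-GNA13 and 1.15 without the std library of pBabe-vector, and the blocked call was lost with DESeq2 (adjusted p = 0.131) and limma (0.181). ASNS, which encodes asparagine synthetase, gave a log2FC of −0.43 (adjusted p in edgeR 0.880, and 5.74e-05 when blocked), and CEBPB one of −0.22 (adjusted p in edgeR 0.933, and 0.00727 when blocked). With 1 library left out, the log2FC of ASNS ran from −0.70 to −0.14 and that of CEBPB from −0.43 to −0.016, both nearest to 0 without the std library of pBabe-vector. The blocked call of CEBPB was lost without the std pair (adjusted p = 0.131). Between the pairs of libraries all 10 passed, beside 47.4% of all genes. ATF4, named outside the rule as their regulator, was at 763, 697 and 404 CPM in pBabe-GNA13 and at 912, 843 and 406 CPM in pBabe-vector, so the replicate 3 libraries were the lowest for ATF4 as they were for ATF3.

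**Figure D5:**
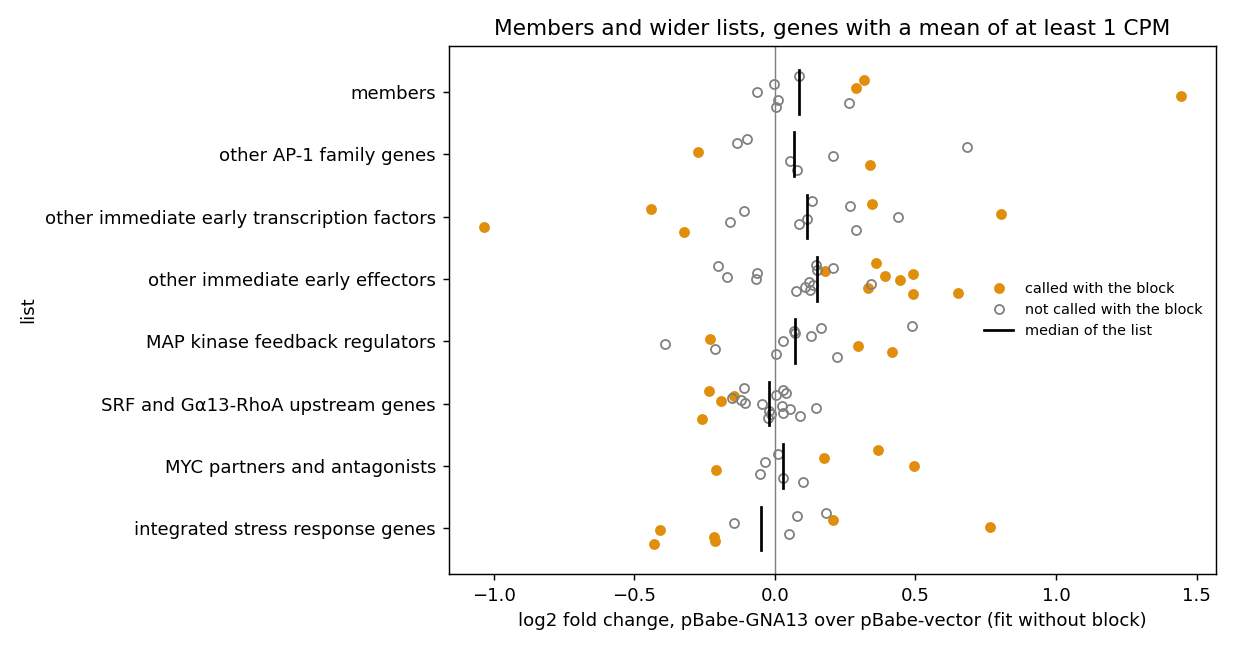
Log2 fold change of pBabe-GNA13 over pBabe-vector without the block (horizontal axis) for each gene with a mean of at least 1 CPM, by list, with genes called with the block filled and the median of each list as a line. Of the 26 other immediate early effectors 8 are called, all higher, and of the 20 genes of the SRF and Gα13-RhoA list 4 are called, all lower, beside 9.32% of all genes called as higher and 10.4% as lower.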

How the data were processed

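RNA-seq was performed on 6 LNCaP libraries. Reads were checked with FastQC 0.11.7, mapped with STAR to the Gencode transcriptome and counted per gene with featureCounts, and the authors deposited whole-number read counts per gene symbol (though labelled CPM). All columns were used. The heading of the pBabe-GNA13 std library repeats the number of replicate 2, so it is tied to its line only. Counts were normalised by TMM and fitted with the quasi-likelihood test of edgeR 4.0.16 (R 4.3.3, trended dispersion, no filter) with Benjamini-Hochberg adjustment over all genes. DESeq2 1.42.0 and limma 3.58.1 were alternatives. Log2 CPM used a prior count of 2. Standard errors are the log2 fold change divided by the square root of F. Pairing of libraries was checked by correlating deviations from the line means across 12778 genes, which are not independent: r was 0.659 (std), 0.807 (replicate 2) and 0.888 (replicate 3) within pairs, and −0.736 to 0.125 otherwise. No 2 libraries of a line agreed within sampling noise. The scripts were tested on simulated counts in which far fewer genes differed between pairs than in these data. That test checked the code and does not bear on the blocked calls.

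The members and lists were chosen with earlier results of these data known. Genes named are the members, GNA13, the 3 genes of each list with the smallest p and a mean of at least 1 CPM, and the 3 profiles nearest to FOS, EGR1, ATF3 and MYC. Some genes that this rule or the marker lists hold are not reported here. Of the symbols, 13773 matched Gencode 44 directly.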

Additional observations from a re-analysis of the deposited data

How the results depend on the processing

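Without the block, 0 members passed under any alternative, including size factors of DESeq2, a filter at a mean of 1 CPM, the newer quasi-likelihood method, DESeq2, limma, and each library left out, with 0 to 2 members at an unadjusted p under 0.05. The replicate block moved the counts to 3 members, 32 genes of the wider lists and 3407 of all genes. DESeq2 gave 2 genes of the wider lists and 271 of all genes, limma 5 of all genes and edgeR without both std libraries 0 of all genes (566 at an unadjusted p under 0.05), and leaving out 1 library gave 2 to 15 of all genes in place of 24, whichever library it was. Without both std libraries GNA13 had a log2 fold change of 3.60 and an adjusted p of 0.0820, and with 1 library left out its log2 fold change was 3.47 to 3.60. With the block and 1 pair left out, 1 to 4 members passed between the lines, beside 2250 to 3266 of all genes. Between the pairs 3 to 6 members passed, beside 3138 to 7757 of all genes. Both member counts were lowest without the replicate 2 pair, and both counts of all genes were lowest without the replicate 3 pair. With limma and the block, added after the data had been seen, 1 member passed, beside 433 of all genes.

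Several log2 fold changes near 0 changed sign, and the cause was not tested. JUNB became 0.0070 with the filter, ATF3 −0.0039 with the block and −0.0030 with limma, and EGR1 −0.025 with limma and −0.16 without both std libraries. With 1 library left out, the log2 fold change ran from −0.22 to 1.95 for FOS, −0.028 to 0.43 for DUSP1 and −0.050 to 0.22 for MYC. The range was −0.20 to 0.21 for ATF3, −0.15 to 0.24 for EGR1 and −0.028 to 0.055 for JUNB. For IER2 it was −0.11 to 0.012 and for MAFF −0.37 to 1.07. For IER3 the fitted values, from 0 to 9 reads that carry no direction, ran from −0.92 to 0.51. JUN (0.21 to 0.37) and JUND (0.06 to 0.53) kept their sign. The lowest values of FOS, JUN, JUND, ATF3, DUSP1, MYC, IER2 and MAFF were all without replicate 2 of pBabe-GNA13. Relative to the median of its chromosome, JUND was at 0.33 and JUN at 0.26. Depth limits IER3, FOS and EGR1, and 1 stable line for each condition cannot be told apart from the effect of Gα13.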
